A study of Mus musculus with 108 samples.

Results

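The cytosolic ribosomal protein genes encode the proteins of the ribosome that translates nuclear messages. They were taken as all protein-coding rows of the deposited gene table whose symbol starts with Rpl or Rps and a number, plus Rplp0, Rplp1, Rplp2 and Rpsa, without the S6 kinase genes and pseudogenes. The rule used no measured value and found 87 of 55416 genes. Of these, 46 belong to the large subunit, 31 to the small subunit and 7 are tissue-restricted or minor paralogs. A further 2 are retrogenes (Rps23rg1 and Rps27rt), and Rps19bp1 is a binding protein of a ribosomal protein and not itself one.

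RNA was sequenced from male mice of strain C57BL/J, aged 8 to 12 weeks, from liver, kidney and white fat (white adipose tissue, WAT). The mice had free food and water under 12 h of light and 12 h of darkness. Mice were labelled Bmal1-iKO or Bmal1-flox, and Bmal1 (Arntl) encodes a core activator of the circadian clock. Each tissue and genotype was sampled at ZT2, ZT6, ZT10, ZT14, ZT18 and ZT22 (ZT, hours after lights on), with 3 libraries per group and 36 per tissue. The labels do not say which promoter drives the Cre or in which cells Bmal1 was deleted, and the series title names the intestine clock, a tissue not analysed here. They also do not say whether libraries of a group came from separate mice, so p-values measure the spread between libraries, which may be technical.

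A ribosome needs its proteins in fixed proportions, and their messages are among the most abundant in most cells. In mammals these messages begin with a C and a run of pyrimidines, the terminal oligopyrimidine or TOP motif, through which the kinase complex mTORC1 and the protein Larp1 control their translation. In mouse liver, translation of these messages is known to follow feeding and time of day, largely without a matching cycle in message level. Free ribosomal proteins such as Rpl5 and Rpl11 also bind Mdm2 and thereby act on p53.

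The start sequences of 6 genes are shown because the results on tissue and time turn on these genes. Each line gives 30 bases centred on the transcription start recorded by RefSeq (build GRCm38.p6), 5′ to 3′ on the gene's strand, and capitals mark the longest run of C and T that begins with C near the start. RefSeq records 2 starts for Rps27l, and the one with the longer run (9 bases, against 4) is shown. The capitals of Rps27l and Rpl41 end before the recorded start, so by that start these runs are not part of the message.
Rpl15 (chr14:18270972-18271001, minus strand): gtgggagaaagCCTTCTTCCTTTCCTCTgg
Rpl38 (chr11:114668565-114668594, plus strand): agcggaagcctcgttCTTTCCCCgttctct
Rps27 (chr3:90213634-90213663, minus strand): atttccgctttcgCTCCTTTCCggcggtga
Rps27l (chr9:66946071-66946100, plus strand): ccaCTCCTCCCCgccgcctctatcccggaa
Rpl41 (chr10:128549154-128549183, minus strand): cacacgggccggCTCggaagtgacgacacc
Rps28 (chr17:33824548-33824577, minus strand): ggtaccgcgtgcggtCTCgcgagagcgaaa
Rpl15 carried a run of 17 bases at its recorded start and Rpl38 one of 8, while the longest run at Rpl41 and Rps28 was 3 bases. Of the 87 genes, 67 matched the RefSeq promoter table. A run of at least 8 bases within 30 bases of a start was found in 35 of the 67 (52.2%), against 20.6% of all 27018 genes in that table. In windows of 300 bases (250 before the start and 50 after), searched on both strands, the letters CCGGAAG, an ETS-type motif, occurred in 26 of 67 (38.8%), against 9.9% of all genes. The letters AAGATGGC, a YY1-type motif, occurred in 6 of 67 (9.0%), against 3.2% of all. The letters CACGTG, the E-box bound by the Bmal1 and Clock proteins, occurred in 6 of 67 (9.0%), against 8.1% of all genes, so this E-box was about as frequent in both sets. These are matches of letters and not binding sites.

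Libraries held between 13876000 and 24415000 counts (rounded). Albumin and the kidney transporter Slc34a1 marked liver and kidney as labelled. Of the 36 WAT libraries, 21 (10 iKO and 11 flox) had low adipocyte markers, with Adipoq between 7.51 and 525 CPM (a gene's count scaled to a common library size), against 608 to 3946 CPM in the other 15. Many WAT libraries also held epididymal messages, with Crisp1 at a median of 3941 CPM. In liver, 11 libraries (9 iKO and 2 flox) had high cell cycle genes (mean log2 CPM 3.02 to 3.72, against -0.32 to 1.06 in the other 25) and high macrophage markers (7.53 to 8.65, against 2.23 to 6.58). They are iKO ZT6 1 and 2, ZT14 1 and 2, ZT18 1 and 2 and all 3 of ZT22, with flox ZT6 1 and ZT22 1. Values without the libraries of these 11 numbers are given where they change a result. Such fits have no iKO library of ZT22 and 1 each at ZT6, ZT14 and ZT18. Libraries of 2 numbers (iKO ZT18 1 and ZT22 3) had Xist, a message of female cells, at up to 394 CPM although all mice are labelled male, and no other library passed 0.64 CPM. Arntl ran from 2.05 to 20 CPM in iKO and from 2.18 to 24.2 CPM in flox livers, from 2.02 to 36.4 and from 1.27 to 35.6 CPM in iKO and flox kidneys, and from 4.43 to 30.3 and from 2.83 to 40.4 CPM in iKO and flox WAT. The genotypes overlapped, and Arntl does not check the labels because the cells that lost it are not named.

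Together the 87 genes gave 2.29% ± 0.39 of counts in iKO livers and 1.98% ± 0.30 in flox livers (SD, n = 18 each). In kidney they gave 2.51% ± 0.74 in iKO and 2.18% ± 0.41 in flox. In WAT they gave 3.93% ± 0.90 in iKO and 3.53% ± 0.87 in flox. The ranges of the genotypes overlapped in every tissue, at 1.69% to 3.14% in iKO against 1.43% to 2.58% in flox livers, 1.44% to 3.83% against 1.64% to 3.01% in kidney, and 2.40% to 5.23% against 2.05% to 5.10% in WAT. The share was higher with the 11 numbers in liver and kidney, but not in WAT. Its median was 2.42% in those livers and 2.01% in the other 25 livers. It was 3.01% against 1.94% in the same-numbered and other kidneys. In WAT it was 3.76% in the same-numbered libraries and 3.87% in the others. Of the 11 numbers, 9 are iKO. Mitochondrial genes took a median of 3.26% of counts in the 11 livers, against 12.5% in the others, and without mitochondrial counts the family's medians were 2.49% and 2.31%. In kidney the same-numbered libraries did not have high cell cycle genes (median of the mean log2 CPM 1.39, against 1.49 in the others). They had high interferon-stimulated genes (5.83, against 2.27) and low tubule markers (9.002, against 10.2), with Slc34a1 at 1301 CPM, against 4310 CPM. The part of these libraries in the genotype difference of the share was not tested beyond the values without them, given below. In bulk tissue, fewer cells of a type and less RNA per cell cannot be told apart either. A share of all counts also falls when a few other genes take more, and in liver the direction of the family depended on the scale. After TMM scaling, which sets libraries level on the bulk of genes, the median gene of the family lay lower, at 7.55 log2 CPM, in the 11 livers, against 8.08 log2 CPM in the other 25. In the same-numbered kidneys it lay higher, at 8.32 log2 CPM, against 8.00 in the others. In the same-numbered WAT libraries it lay lower, at 8.52 log2 CPM, against 8.77 in the others.

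**Figure D1:**
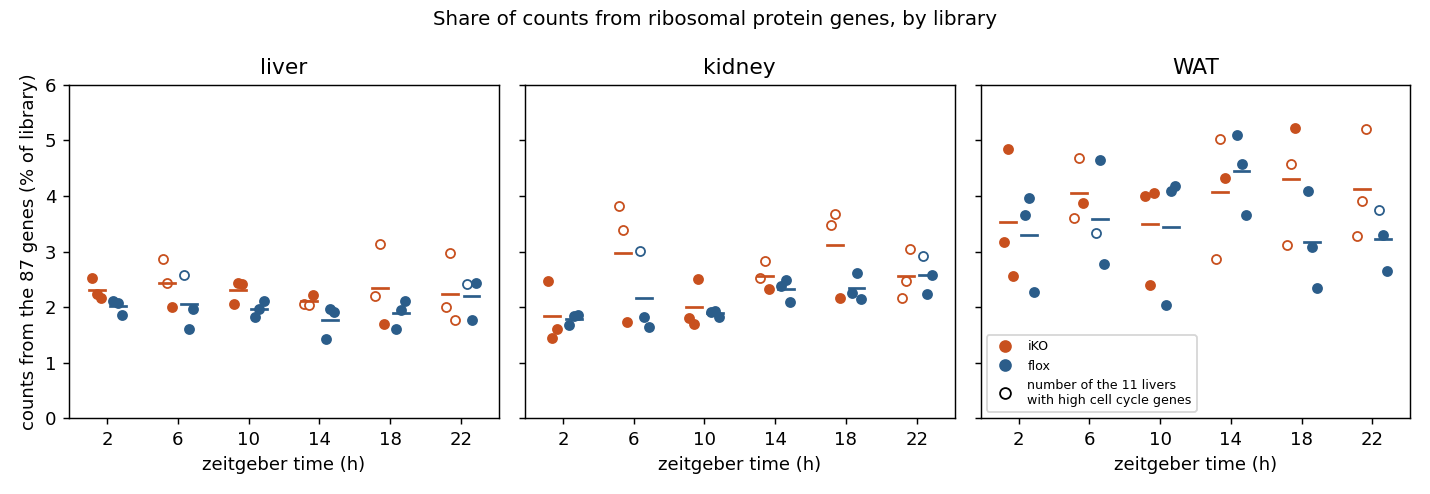
Share of all counts from the 87 ribosomal protein genes (vertical axis, percent) in each library, by tissue and time of day (horizontal axis, h), with iKO in orange and flox in blue, lines for group means (n = 3) and open points for libraries of the 11 numbers. The genotypes overlap in all 3 tissues, and WAT lies highest, up to 5.23%.

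Within each tissue many members moved together across libraries, but not all. Each gene was set against the median of the family in each library, and the median correlation over genes reached 0.704 in livers, 0.73 in kidneys and 0.798 in WAT (36 libraries each). It was above 0.7 for 44 of 85 genes in liver, 49 of 85 in kidney and 58 of 87 in WAT. The lowest values were -0.312, -0.465 and -0.475. In liver the abundant genes Rpl9 (-0.312), Rpl3 (-0.294), Rps4x (-0.228) and Rps3 (-0.18) ran against the family. These libraries share depth, scaling and time of day, so the values are a description. The median of the family had a pooled SD within groups of genotype and time of 0.30 (log2) in liver, 0.31 in kidney and 0.41 in WAT.

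Per kilobase of gene, the P-stalk gene Rplp1 stood highest in all 3 tissues. The P stalk is the part of the large subunit that recruits elongation factors. Rplp1 averaged 1277 CPM per kb in iKO and 1424 in flox livers, 1282 in iKO and 1124 in flox kidneys, and 2180 in iKO and 2104 in flox WAT. Rpl36 came next in liver, at 808 in iKO and 999 in flox, and in kidney, and Rps3a1, a small-subunit protein, came next in WAT, at 974 in iKO and 864 in flox. The partner of Rplp1 in the stalk, Rplp0, its scaffold, averaged 351 and 312 CPM per kb in iKO and flox livers, and 889 and 853 in iKO and flox WAT. Rps23rg1, Rpl36al and Rps10 stood under 2 CPM per kb in every tissue, and Rpl10l, Rpl39l and Rpl3l were lower still in liver. Of these, Rps10 shares 20.6% of its exon bases with the readthrough gene RPS10-NUDT3 and Rpl36al 24.5% with Gm49383, so reads there could belong to more than 1 gene. Rpl13a shares 29.4% of its exon bases with Gm45713 and Rpl24 shares 47.0% with Gm28037. The rows of those partners held 0 counts for Gm28037 and Gm45713 and 2 counts for Gm49383 over all libraries, and what became of the shared reads is not given in the sources used here. Pseudogene rows held counts equal to between 4.38% and 6.76% of the counts of the 87 genes, so levels of genes with near-identical copies are uncertain.

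Between tissues of flox mice the family's median lay higher in WAT than in kidney on both scales, while its direction in the comparisons with liver depended on the scale. With TMM in 1 fit of every library, the median difference of the 87 genes was 0.79 (log2) for liver minus kidney, 0.37 for liver minus WAT and 0.42 for WAT minus kidney. That fit treated libraries as independent, although same-numbered libraries of different tissues may share a mouse. Scaled to total counts, the same medians were -0.08, -0.81 and 0.70, while the median of all 22789 genes was -0.82, -1.49 and 0.54, against -0.06, -0.40 and 0.26 with TMM. With TMM and edgeR's quasi-likelihood test (adjusted p under 0.05), 73 of 87 genes differed for liver minus kidney (72 higher, 1 lower), beside 62.2% of all genes tested (28.7% higher, 33.4% lower). For liver minus WAT 58 differed (45 higher, 13 lower), beside 74% of all genes (29.3% higher, 44.6% lower), and for WAT minus kidney 59 (56 higher, 3 lower), beside 65.3% (39.5% higher, 25.8% lower). Without the low-adipocyte libraries 25 were called for WAT minus kidney, beside 47.8% of all genes. What can be read without the choice of scale is how members differ from each other, so libraries were next scaled on the family itself.

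Relative to the family, 45 of the 87 genes differed for liver minus kidney (22 higher, 23 lower), beside 64.8% of all genes, 56 for liver minus WAT (26 higher, 30 lower), beside 72.6%, and 31 for WAT minus kidney (16 higher, 15 lower), beside 60.7%. This scale was chosen after the data were seen. It sets the typical member level between libraries, so the near-even split of higher and lower follows largely from the scaling. Other genes were not levelled in this way, so their share is not a like comparison. Rps18, a head protein of the small subunit, was 0.89 ± 0.09 (log2 ± SE) higher in liver than in kidney relative to the family (edgeR adjusted p = 1.84e-14). With TMM it averaged 897 ± 281 CPM in flox livers and 289 ± 71.3 CPM in flox kidneys (SD, n = 18 each), where the lowest liver, at 371 CPM, lay below the highest kidney, at 415 CPM. Rpl36 (0.72 ± 0.12) and Rpl12 (0.70 ± 0.08), an rRNA-binding protein near the stalk, were also higher in liver than in kidney relative to the family. Lower in liver than in kidney relative to the family were Rpl9 (-0.90 ± 0.12) and Rpl5 (-0.86 ± 0.09), which carries the 5S rRNA with Rpl11. So were Rpl3 (-0.84 ± 0.12), which lines the peptidyl transferase centre, and Rps3 (-0.70 ± 0.10), at the message entry channel. With TMM, flox livers and kidneys averaged 178 and 204 CPM of Rpl9, 345 and 380 of Rpl5, 329 and 357 of Rpl3 and 357 and 356 of Rps3. On total counts they averaged 115 and 226 CPM of Rpl9, 214 and 418 of Rpl5, 210 and 392 of Rpl3 and 226 and 394 of Rps3. The 5S partners went different ways on the family scale, as Rpl11 was 0.34 ± 0.08 higher in liver (adjusted p = 0.000185).

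Some of these calls held with TMM and with total counts alike. For liver minus kidney, Rps18 differed by 1.61 with TMM and 0.72 with total counts, and Rpl12 by 1.41 and 0.53, both called on each scale. For WAT minus kidney, Rpl12 differed by 0.95 and 1.22, and Rpl13a, a protein known for translational silencing in inflammation, by -0.71 and -0.45, again called on both. For liver minus WAT, Rpl9 differed by -0.81 and -1.89 and Rpl13a by 1.40 and 0.27. Rpl36 and Rps10 were called there with TMM, at 1.31 and 1.28, but not with total counts, at 0.13 and 0.16 (adjusted p = 0.45 and 0.56). Rpl13a and Rps10 share exon bases with other genes, as given above, and their rows are low, so their levels are uncertain. With TMM, Rpl13a averaged 25.5, 15.8 and 9.56 CPM in flox liver, kidney and WAT, and Rps10 averaged 3.32, 1.84 and 1.38 CPM. Rpl7l1 was called for WAT minus kidney with TMM (-0.46) and not with total counts (-0.21, adjusted p = 0.0696).

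Outside the testis and muscle paralogs, the largest differences in which WAT lay higher on the family scale were those of Rps26, at the message exit channel of the small subunit. Relative to the family it was 1.21 ± 0.13 (log2 ± SE) lower in liver than in WAT (-1.21, edgeR adjusted p = 2.64e-13) and 1.30 ± 0.13 higher in WAT than in kidney (adjusted p = 2.86e-14). With TMM it averaged 377 ± 61.9 CPM in flox livers, 723 ± 301 CPM in flox WAT and 219 ± 49.6 CPM in flox kidneys. WAT values ran from 165 to 1320 CPM and covered the whole liver range. With TMM the WAT minus kidney difference was 1.71, and without the low-adipocyte libraries it was 0.85 and still called. The liver minus WAT difference was -0.91 with TMM and -0.07 without those libraries (adjusted p = 0.84), so that call rested on them. The part of non-adipose cells in the level of Rps26 was not tested beyond that.

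**Figure D2:**
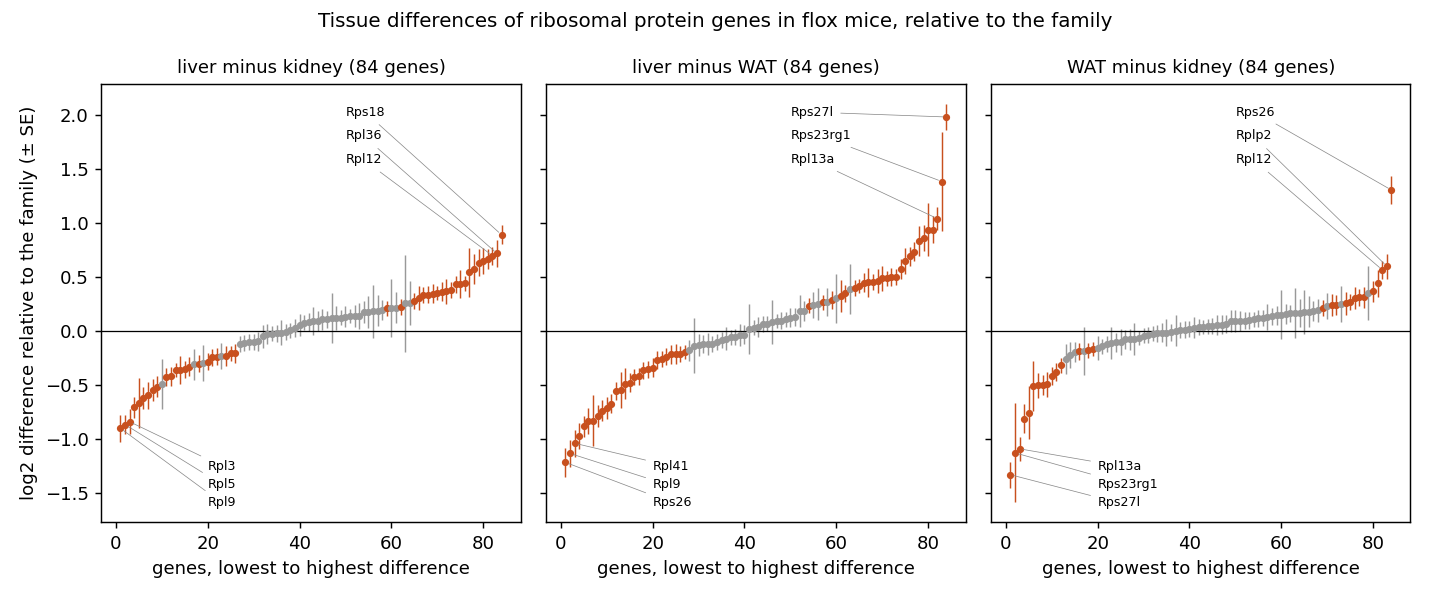
Differences between tissues of flox mice for 84 ribosomal protein genes (vertical axis, log2 relative to the family, ± SE), ordered along the horizontal axis, with adjusted p under 0.05 in orange. The paralogs Rpl3l, Rpl10l and Rpl39l, near 0 counts in some tissues, are not drawn, and Rps27l stands highest for liver minus WAT at 1.98.

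The clearest shift between tissues within a pair of paralogs was that of Rps27l against Rps27. Both encode the zinc-finger protein eS27 of the small subunit, and Rps27l is known as a p53 target. In liver, Rps27l averaged 255 CPM per kb in iKO and 316 in flox, and Rps27 averaged 139 in iKO and 126 in flox. In kidney, Rps27l averaged 192 and 204 CPM per kb in iKO and flox, near Rps27 at 160 and 168. In WAT the order turned, with Rps27l at 112 and 125 CPM per kb in iKO and flox and Rps27 at 344 and 290. Relative to the family, Rps27l was 1.98 ± 0.12 (log2 ± SE) higher in flox liver than in flox WAT (edgeR adjusted p = 1.57e-24), and 1.33 ± 0.12 lower in WAT than in kidney (-1.33, adjusted p = 4.80e-16). Rps27 was lower in liver than in WAT (-0.49 ± 0.14, adjusted p = 0.00167). On each library's total count, flox livers had 139 to 274 CPM of Rps27l and flox WAT 53.8 to 161 CPM, so the tissues overlapped only at their edges, and the difference kept its sign with total counts (1.20, adjusted p = 1.68e-18) and without the low-adipocyte libraries (2.40, adjusted p = 2.05e-13). Rps27rt is a retrogene that shares 89.5% of its stretches of 100 bases, mostly with Rps27. Rps27 in turn shares 57.9%, mostly with Rps27rt, and Rps27l shares 0.0%, so Rps27rt and Rps27 are counted with less certainty. The deposited gene lengths are 1043 bases for Rps27 and 816 for Rps27l, against longest coding transcripts of 458 and 575 bases. The order of the pair within a tissue thus depends on the length used and on the shared reads.

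The other paralogs stayed below their partners in all 3 tissues. Rpl22l1 averaged 13.3 CPM per kb in iKO and 14.6 in flox livers, and Rpl22 averaged 48.8 in iKO and 51.5 in flox livers. Rpl7l1, which is known for a role in early large-subunit assembly, averaged 15.8 and 15.7 CPM per kb in iKO and flox livers, against 161 and 175 for Rpl7. Rpl36al lay at 0.75 and 0.67 CPM per kb there, against 65.9 and 65.4 for Rpl36a.

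Rpl10l, Rpl39l and Rpl3l are known in mouse as testis-specific (the first pair) and as heart- and muscle-specific (Rpl3l). Rpl10l had 0 counts in all 36 livers and all 36 kidneys. In WAT its highest library was iKO ZT14 1 with 1030 counts (40.1 CPM), followed by flox ZT22 1 with 175 counts. The same libraries were highest for Rpl39l, with 749 and 103 counts. The protamine gene Prm1, made in sperm precursors, stood at 158 CPM and 131 CPM in them, against a WAT median of 9.63 CPM. Rpl3l was highest in flox ZT18 2 (136 CPM) and iKO ZT14 1 (132 CPM), where the muscle actin Acta1 stood at 34600 and 18750 CPM, against a WAT median of 58.0 CPM. The part of those cells in these levels was not tested.

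The comparison of genotypes asks whether the family changed in tissues of Bmal1-iKO mice. On average over the 6 times, 1 of 85 genes tested in liver differed (0 higher, 1 lower) by edgeR's quasi-likelihood test with Benjamini-Hochberg adjustment, beside 2.64% of all 16582 genes (1.09% higher, 1.56% lower). In kidney 0 of 85 differed, beside 0.164% of all genes, and in WAT 0 of 87, beside 0% of all genes. At an unadjusted p under 0.05 there were 8, 2 and 1 members (9.41%, 2.35% and 1.15%), beside 24.6%, 9.43% and 3.76% of all genes. The median difference of iKO minus flox over members was -0.05 (log2) in liver (33 positive, 52 negative), 0.11 in kidney (73 positive, 12 negative) and 0.08 in WAT (75 positive, 12 negative), beside 0.00, -0.0024 and 0.03 over all genes. Without the libraries of the 11 numbers these medians were 0.04 (52 positive, 34 negative, with 2 genes called lower, beside 7.03% of all genes called), -0.01 (37 positive, 48 negative) and 0.10 (66 positive, 21 negative), so the sign in liver and kidney was not kept. Those medians cover 5 of the 6 times, since no iKO library of ZT22 was left. Without the low-adipocyte libraries the median in WAT was 0.35 (80 positive, 7 negative), with 0 genes called, over 5 times, since no flox library of ZT10 was left. With total counts 11 genes were called in liver (10 higher, 1 lower), beside 7.42% of all genes, where the member median was 0.25 and that of all genes 0.28.

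**Figure D3:**
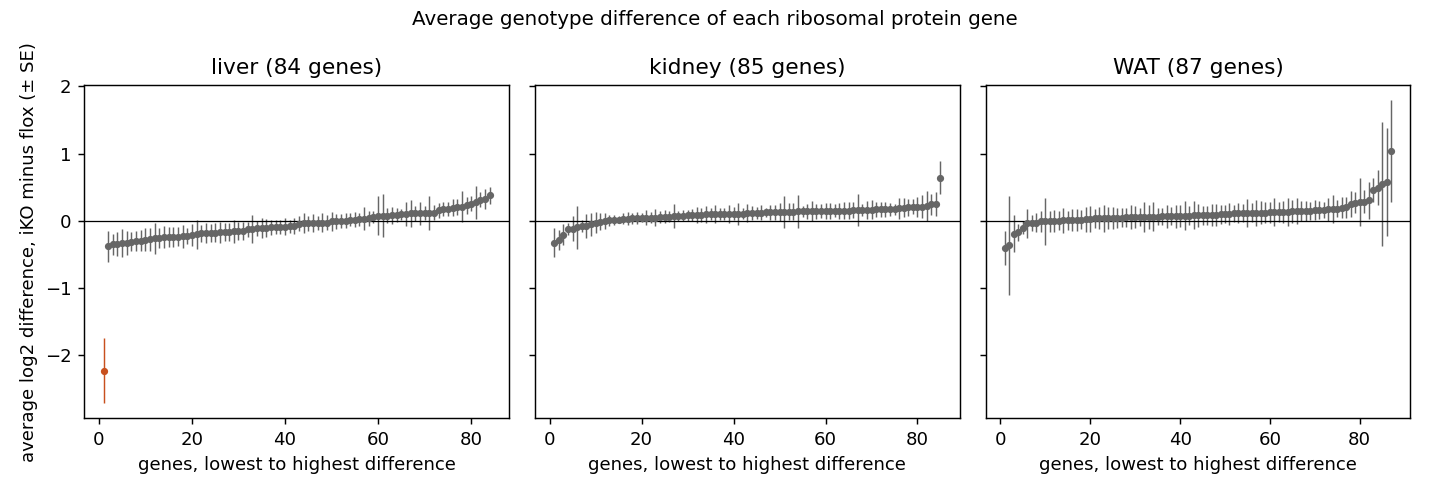
Average difference of iKO minus flox over the 6 times for each gene (vertical axis, log2, ± SE), ordered along the horizontal axis within each tissue, with adjusted p under 0.05 in orange. Only Rps23rg1 in liver passes, at -2.23, and most other points lie near 0. Rpl39l in liver, near 0 counts, is not drawn.

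The gene that differed in liver was Rps23rg1, a retrogene derived from Rps23 that has been described in mouse brain. Its counts were low. It had 0.04, 0.74 and 3.51 CPM (lowest, median and highest) in iKO livers, against 0.00, 3.37 and 6.88 CPM in flox livers, from 1 to 53 and 0 to 133 counts. The lowest flox livers were ZT22 1 with 0 counts and ZT6 1 with 1 count, both among the 11 libraries with high cell cycle genes, and the other 16 flox livers had 15 counts or more. Among iKO livers the 9 of those numbers had 1 to 32 counts and the other 9 had 6 to 53, so the groups overlapped. Rps23rg1 fell by 2.23 ± 0.48 on the log2 scale in iKO livers (adjusted p = 0.0146), and by 1.73 without the 11 livers (-1.73, adjusted p = 0.000641). In every leave-one-out fit it remained called, between -2.56 and -2.09. In kidney it averaged 2.71 CPM in iKO and 2.84 CPM in flox (log2 difference -0.12 ± 0.18, adjusted p = 0.89). In WAT it averaged 3.11 CPM in iKO and 2.11 CPM in flox and ran from 0 to 15.1 CPM in iKO. Rps23-ps2 lies on the opposite strand over 14.3% of its exon bases, and reads of these genes cannot be told apart, since the strand setting of the counting is not given in the sources used here.

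Next by p in liver came Rpl9, with 80.6, 148 and 229 CPM (lowest, median and highest) in iKO and 76.1, 107.9 and 199 CPM in flox. Its difference was 0.38 ± 0.13 (log2 ± SE, edgeR adjusted p = 0.092), and the genotypes overlapped over most of their ranges. Rps3 differed by 0.31 ± 0.12, Rpl35 by -0.35 ± 0.15 and the stalk gene Rplp2 by 0.25 ± 0.11, none below an adjusted p of 0.05. In kidney the smallest p belonged to Rps27a, which makes a ribosomal protein fused to ubiquitin. It had 45.002, 163 and 356 CPM in iKO kidneys and 54.5, 95.7 and 266 CPM in flox kidneys, a difference of 0.64 ± 0.24 (adjusted p = 0.35). Next in kidney were Rpl9 at 0.17, Rplp2 at 0.21, Rpl17 at -0.29 and Rpl3 at 0.12, with adjusted p between 0.518 and 0.583. In WAT it was Rps28, with 39.5, 107 and 307 CPM in iKO and 37.2, 88.4 and 214 CPM in flox, a difference of 0.46 ± 0.17 (adjusted p = 1). The next in WAT were Rps27a at 0.49, Rps29 at 0.27, Rplp2 at 0.28 and Rps27rt at -0.41. Rps6, the substrate of the S6 kinases downstream of mTORC1, averaged 342 ± 77.7 CPM in iKO and 362 ± 51.1 CPM in flox livers (-0.09 ± 0.10, adjusted p = 0.61). The other stalk genes were likewise not called, with Rplp0 at 0.17 ± 0.11 and Rplp1 at -0.21 ± 0.16 in liver.

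At single times 0 members were called in liver, kidney or WAT, beside at most 0.0362% of all genes (liver ZT18) and 0.0113% in kidney at ZT22. The test of the difference between times (genotype by time) called 0 of 85, 0 of 85 and 0 of 87, beside 0% of all genes in each tissue. At an unadjusted p under 0.05 it gave 5, 0 and 1 members, beside 6.45%, 7.79% and 2.64% of all genes. The members' median difference at each time is given as a description, with no test across times. In liver it stood at 0.02 (log2) for ZT2 and -0.17 for ZT6, then at 0.25 for ZT10, -0.31 for ZT14, -0.18 for ZT18 and -0.06 for ZT22, while the median of all genes stayed between -0.07 and 0.02. In kidney it stood at -0.15 for ZT2 (25 positive, 60 negative) and 0.28 for ZT6, then at 0.15 for ZT10, 0.02 for ZT14, 0.27 for ZT18 and -0.01 for ZT22, beside -0.02 to 0.02 over all genes. In WAT it stood at 0.13 for ZT2 and 0.13 for ZT6, then at -0.26 for ZT10 (15 positive, 72 negative), -0.19 for ZT14 (12 positive, 75 negative), 0.56 for ZT18 (83 positive, 4 negative) and 0.11 for ZT22, beside -0.04 to 0.09 over all genes. Without the libraries of the 11 numbers, which leaves 1 iKO library at each of these times, it was 0.23 in liver at ZT14, and -0.16 and -0.12 in kidney at ZT6 and ZT18.

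Rhythm asks whether a 24 h wave describes a gene's level in a genotype. Amplitude here means the height of the fitted peak above the mean, in log2 units. In kidney, 1 of 85 members was rhythmic in iKO, beside 4.22% of all genes, and 3 of 85 in flox, beside 5.07%. In liver 0 of 85 were rhythmic in iKO and 0 of 85 in flox, beside 0.0844% and 0.772% of all genes. In WAT 0 of 87 were rhythmic in either genotype, beside 0%. At an unadjusted p under 0.05 the counts were 6 in iKO and 7 in flox livers, beside 12.2% and 14.9% of all genes. They were 16 in iKO and 23 in flox kidneys (18.8% and 27.1%), beside 22.5% and 22.3%, and 6 each in WAT, beside 3.78% and 9.69%. Without the libraries of the 11 numbers, 11 of 85 members were rhythmic in flox kidneys, beside 8.65% of all genes, and 0 in iKO kidneys, beside 0.17%. In flox livers 5 of 86 were, beside 8.24%. Leaving out 1 library at a time gave 0 to 7 members in iKO and 2 to 9 in flox kidneys (0 without iKO ZT2 3, ZT22 2 or ZT22 3, 7 without iKO ZT2 1 or ZT6 1). The flox count was 9 without iKO ZT2 1, and 5 to 7 without flox ZT2 2, ZT6 1, ZT6 3 or ZT14 2. The test of a changed rhythm between genotypes called 0 members in each tissue, beside 0% of all genes, so a call in 1 genotype alone is not a difference. Its smallest p in liver belonged to Rps21, Rpl23a and Rps28 (adjusted p = 0.83 each). Time as a factor with 6 levels, which needs no wave shape, called 8 members in iKO livers, beside 11.6% of all genes, and 2 (Rps28 and Rps29) in flox livers, beside 4.11%. In kidney it called 14 members in iKO, beside 40% of all genes, and 4 in flox, beside 12.4%. In WAT it called 0 in iKO, beside 0%, and 0 in flox, beside 0.0514%.

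Rpl41, whose product is the shortest protein of the ribosome and bridges the subunits, was rhythmic in kidneys of both genotypes. In iKO kidneys it had 593, 204 and 170 CPM at ZT2 and 494, 397 and 253 CPM at ZT6. It had 522, 567 and 742 at ZT10, 537, 615 and 615 at ZT14, 591, 792 and 467 at ZT18 and 267, 190 and 258 at ZT22. In flox kidneys it had 259, 298 and 142 CPM at ZT2 and 327, 187 and 255 CPM at ZT6. It had 459, 531 and 385 at ZT10, 604, 582 and 619 at ZT14, 515, 574 and 522 at ZT18 and 400, 276 and 431 at ZT22. The flox libraries at ZT14 and ZT18 all lay above those of ZT2, ZT6 and ZT22. Among iKO libraries ZT2 1, at 593 CPM, stood with the high times and the other libraries of ZT2 with the low ones. The fitted amplitude was 0.65 with a peak at 13.02 h in iKO (edgeR adjusted p = 0.0233) and 0.72 with a peak at 15.2 h in flox (adjusted p = 0.0108). Without the libraries of the 11 numbers the iKO amplitude was 0.57 (adjusted p = 0.322) and the flox amplitude 0.78 (adjusted p = 0.0107). Without the 2 numbers of high Xist (iKO ZT18 1 and ZT22 3) the iKO adjusted p was 0.0703, and without iKO ZT2 3, ZT22 2 or ZT22 3 alone it was 0.0577, 0.0538 or 0.0556.

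Rps28, a small protein near the message exit channel, had the largest fitted amplitude of the 85 genes in flox kidneys. In iKO kidneys it had 99.1, 15.6 and 13.99 CPM at ZT2, and its highest libraries were 153 CPM at ZT10 and 141 CPM at ZT18. In flox kidneys it had 25.6, 37.1 and 19.5 CPM at ZT2, and 134, 74.5 and 76.1 CPM at ZT14. Its amplitude was 0.88 with a peak at 13.9 h in iKO kidneys (adjusted p = 0.0536) and 1.05 with a peak at 15.0 h in flox kidneys (adjusted p = 0.0191). Without flox ZT2 3 the adjusted p was 0.0565. In flox livers the amplitude was 1.13 with a peak at 14.5 h (adjusted p = 0.10), and in flox WAT 0.91 with a peak at 13.6 h (adjusted p = 0.12). The fitted peaks of Rps28 thus lay within the early dark hours in the flox mice of all 3 tissues, with the call made in kidney.

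Rpl15, a core protein of the large subunit, was called in flox kidneys with an amplitude of 0.36 and a peak at 15.0 h (adjusted p = 0.0327). It had 141 to 182 CPM at ZT2 and 219 to 245 CPM at ZT14 there, with no overlap between these times. It had an amplitude of 0.20 in iKO kidneys (adjusted p = 0.29). Leaving out single flox libraries ended the call in 6 fits, at adjusted p from 0.0501 to 0.0655. Relative to the family the flox adjusted p of Rpl15 was 0.102, while Rps28 (0.0133), Rpl41 (0.0171) and Rpl38 (0.0302) passed in flox kidneys, beside 0.822% of all genes.

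Other members had fitted peaks at the opposite side of the day in kidney, around lights on, but were not called with TMM. Rpl17, at the polypeptide exit, had an amplitude of 0.69 with a peak at 23.9 h in iKO kidneys (adjusted p = 0.0539) and 0.65 with a peak at 0.34 h in flox kidneys (adjusted p = 0.0526). Rpl26, also near the exit, had 0.47 at 22.6 h in iKO and 0.48 at 0.92 h in flox (adjusted p = 0.072 and 0.057). Relative to the family, Rpl17 (0.75, adjusted p = 0.0383) and Rpl26 (0.47, adjusted p = 0.0474) passed in iKO kidneys beside Rpl41, Rpl38 and Rps28, against 0.567% of all genes. With TMM neither was called, and scaling on the family subtracts the family's own course from each gene. With TMM the lowest adjusted p in iKO livers was that of Rpl23a (amplitude 0.78, peak at 18.3 h, adjusted p = 0.13). In WAT the lowest were Rpl13a in iKO (0.48 at 17.5 h, adjusted p = 1) and Rps29 in flox (0.77 at 14.1 h, adjusted p = 0.11). In flox livers on the family scale Rpl37 passed, with an amplitude of 0.53 and a peak at 14.5 h (adjusted p = 0.0183), beside 0.271% of all genes.

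**Figure D4:**
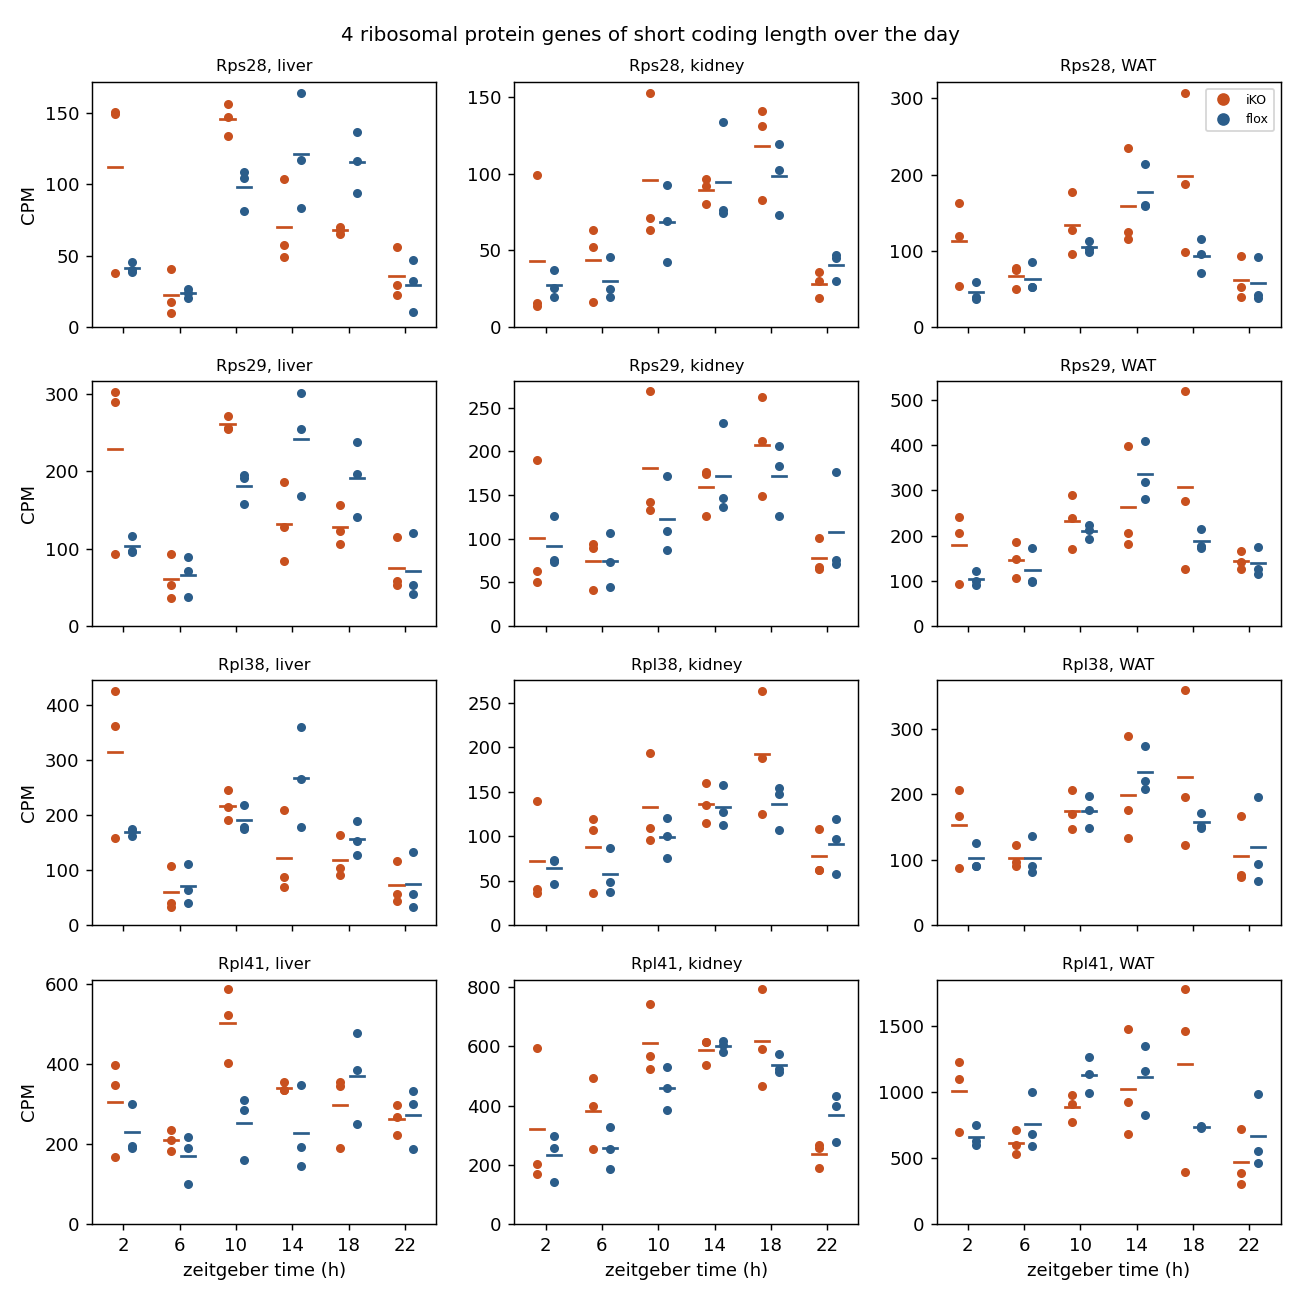
CPM of Rps28, Rps29, Rpl38 and Rpl41 (rows) in every library of liver, kidney and WAT (columns) by time of day (h), with iKO in orange, flox in blue and lines for group means (n = 3). In liver iKO ZT2 1 and 2 stand near 150 CPM for Rps28, far above iKO ZT2 3 and all flox libraries of ZT2.

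The 4 genes drawn there share a short coding sequence, and some single libraries were high for several of them. In liver, Rps28 had 150 and 149 CPM in iKO ZT2 1 and 2, against 37.9 CPM in iKO ZT2 3, and 45.6, 38.2 and 40.1 CPM in the flox livers of ZT2. Rps29 had 290, 303 and 93.5 CPM in the iKO livers of ZT2, against 116, 95.6 and 97.7 CPM in flox. Rpl38 had 362, 424 and 159 CPM in the iKO livers, against 170, 161 and 174 CPM in flox. The first and second iKO libraries thus stood apart from the third, which lay just below the flox libraries for all 3 genes. The differences at ZT2 were not called (Rps28 1.44 ± 0.49 on the log2 scale, adjusted p = 0.95).

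Coding length was therefore set against amplitude, a comparison chosen after the values were seen and given as a description. The short members are the 12 genes of at most 300 coding bases, from Rpl41 with 138 and Rps29 with 168 to Rpl37 with 291. Coding length here is the longest annotated coding sequence among a gene's principal transcripts, or among all its coding transcripts where none is marked. It can exceed the coding length of the usual product. In liver their median amplitude was 0.37 in iKO and 0.45 in flox, against 0.20 in iKO and 0.16 in flox for the other 73 genes. In kidney it was 0.36 in iKO and 0.45 in flox over 11 short genes tested, against 0.19 and 0.25 for the other 74. In WAT it was 0.23 in iKO and 0.31 in flox, against 0.21 and 0.17 for the other 75. Spearman's rho between amplitude and coding length over members was -0.35 in iKO and -0.35 in flox livers, -0.32 and -0.38 in kidney, and -0.19 and -0.27 in WAT. These genes share libraries, depth and base composition. A fitted amplitude cannot be negative and grows with the spread between libraries. In liver the SD within groups (log2) was 0.635 for Rps28, 0.632 for Rpl38, 0.548 for Rps29 and 0.453 for Rpl41. The median over the 85 genes was 0.394, and of the short members only Rps21, at 0.358, lay below it. The short set in liver also holds Rpl39l, which averaged 0.07 CPM in flox. The part of this spread in the amplitudes was not tested.

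**Figure D5:**
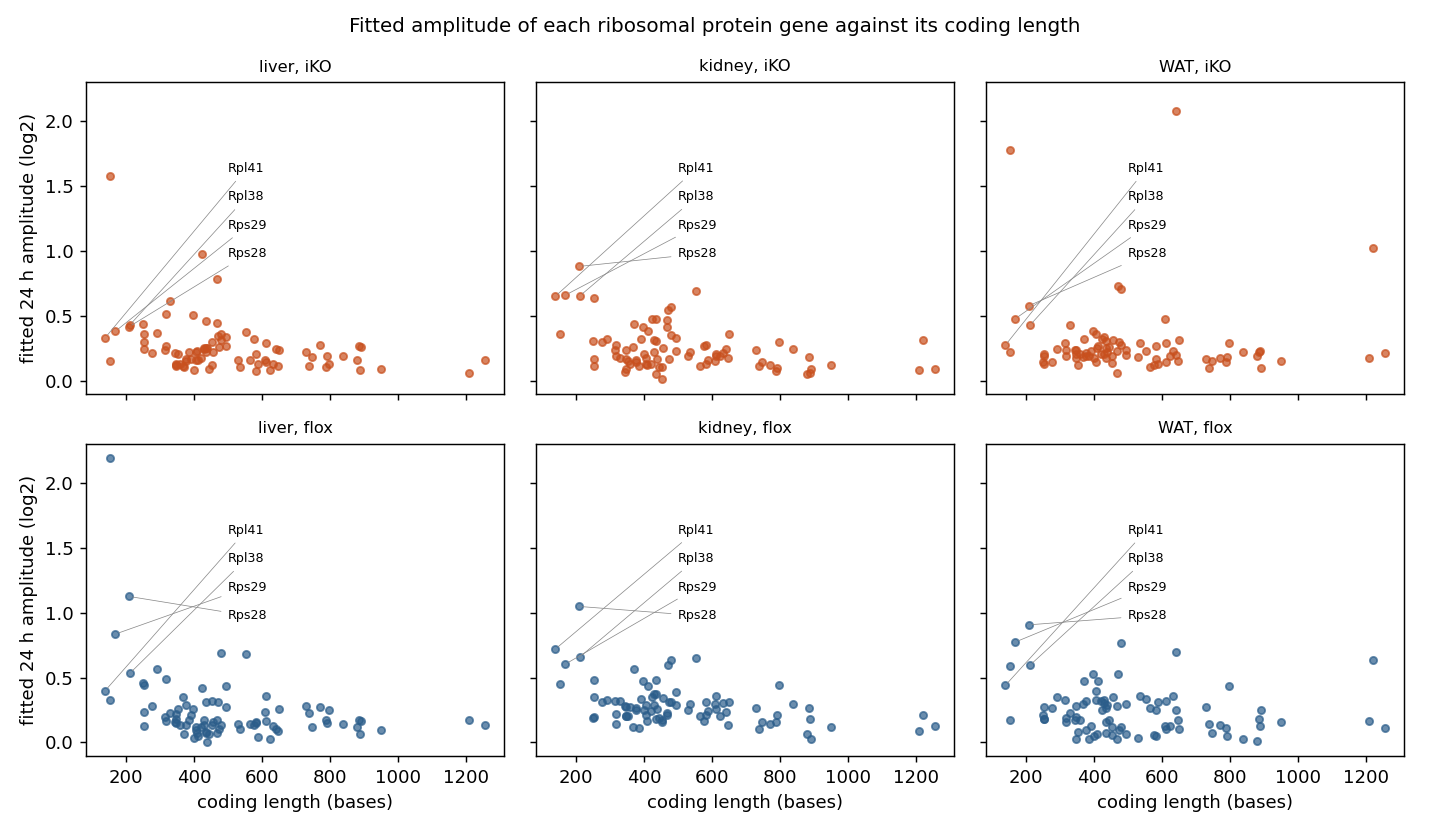
Fitted 24 h amplitude (vertical axis, log2) of each member against its coding length (horizontal axis, bases), with iKO above and flox below and 1 column per tissue. Rps28 lies above 0.8 in flox of all 3 tissues and in iKO kidney, and most genes of over 300 coding bases lie below 0.5. The highest point in liver is Rpl39l, near 0 counts, and the highest 3 in iKO WAT are Rpl10l, Rpl39l and Rpl3l, genes high in single libraries there.

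The level of the short members relative to the others moved by library. In iKO livers the short-minus-other difference averaged -0.73 ± 0.41 (log2, SD, n = 3) for ZT2 and -0.86 for ZT6, then -0.53 for ZT10, -0.87 for ZT14, -0.86 for ZT18 and -1.45 ± 0.31 for ZT22. In flox livers it averaged -1.33 ± 0.12 for ZT2 and -1.23 for ZT6, then -0.56 for ZT10, -0.54 for ZT14, -0.70 for ZT18 and -1.39 ± 0.43 for ZT22. Other genes of equally short coding length, with a mean above 5 log2 CPM, stood against the other genes in flox livers at 0.55 for ZT2 and -0.03 for ZT6, then 0.41 for ZT10, 0.53 for ZT14, 0.28 for ZT18 and -0.17 for ZT22. Both sets were low at ZT6 and ZT22 and higher from ZT10 to ZT18 in flox livers, while at ZT2 the short members were low and the other short genes high. In iKO livers those other short genes stood at 0.54 for ZT2 and -0.32 for ZT6, then 0.40 for ZT10, -0.12 for ZT14, 0.12 for ZT18 and -0.14 for ZT22. The part of fragment size or RNA quality in these values was not tested.

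Genes around the ribosome were counted in the same tests. These lists were chosen with earlier results known. For the average genotype effect in liver, 1 of 12 genes of the RNA polymerase I machinery differed, 1 of 35 ribosome biogenesis factors, and 0 of 20 other TOP messages, 0 of 23 initiation factors, 0 of 17 mTORC1 and TOP regulators and 0 of 77 mitochondrial ribosomal proteins, beside 2.64% of all genes. Polr1d, a subunit of RNA polymerases I and III, rose by 0.60 ± 0.14 (log2 ± SE, adjusted p = 0.0254), with 64.4 CPM in iKO and 41.5 CPM in flox livers. Mybbp1a, a nucleolar protein, fell by 0.29 ± 0.08 (-0.29, adjusted p = 0.044), with 59.2 CPM in iKO and 72.9 CPM in flox livers. In kidney and WAT no gene of these lists was called, with 4 and 3 at an unadjusted p under 0.05. The median difference of the lists in liver lay between -0.09 (mitochondrial ribosomal proteins) and 0.09 (initiation factors).

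In kidney some of these genes were rhythmic, beside the 4.22% of all genes in iKO and 5.07% in flox given above. Tsc1, an inhibitor of mTORC1, had an amplitude of 0.39 with a peak at 12.1 h in iKO and 0.42 with a peak at 11.3 h in flox (adjusted p = 0.0431 and 0.0276). Btf3, a TOP message of the nascent chain complex, peaked at 0.16 h in iKO and 1.44 h in flox, opposite to Rpl41. The mitochondrial ribosomal protein genes gave 4 rhythmic genes of 77 in each genotype, a share close to that of all genes, with Mrpl33 near lights on (0.30 h in iKO, 0.22 h in flox) and Mrps12 at 11.1 h in iKO and 14.2 h in flox. Among biogenesis factors 1 of 35 was rhythmic in iKO (Bop1) and 3 in flox (Ftsj3, Nolc1 and Nob1, peaking between 14.01 h and 16.02 h). Ubtf, the activator of rRNA gene transcription, peaked at 13.8 h in flox (amplitude 0.31, adjusted p = 0.0317) and was not called in iKO. Taf1b, of the same RNA polymerase I list, was called in iKO only, with a peak at 23.9 h (amplitude 0.38, adjusted p = 0.0372). The initiation factor Eif4g1 was also called in iKO only, at 10.5 h (amplitude 0.46, adjusted p = 0.0367). No other gene of the TOP, initiation, RNA polymerase I and mTORC1 lists was rhythmic in kidney by this edgeR test.

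Between tissues, 1 of 87 members differed in its genotype effect for liver minus WAT (0 higher, 1 lower), beside 0.948% of all genes (0.465% higher, 0.483% lower), and this was Rps23rg1. For liver minus kidney 0 members were called, beside 0.448% of all genes, and for WAT minus kidney 0, beside 0.00439%. At an unadjusted p under 0.05 there were 4 members for liver minus WAT, 8 for liver minus kidney and 0 for WAT minus kidney, by the same edgeR test, beside 14.5%, 11.6% and 3.67% of all genes.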

How the data were processed

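Whole-number counts per gene were deposited for all libraries, 1 column each. Extraction used Trizol and reads had 150 bases, per the labels' protocols. The submitters' processing notes list DESeq2 1.16.1, HISAT2 2.0.4, featureCounts 1.5.0-p3 and the build GRCm38, without strand or multi-mapping settings. The counts as deposited by the authors were tested per tissue with edgeR 4.0.16 (R 4.3.3): TMM scaling, the filterByExpr filter, 6 times in 2 genotypes, robust quasi-likelihood F-tests and Benjamini-Hochberg adjustment over all genes, with calls at 0.05. Rhythm was a cosine and sine of 24 h per genotype. Comparisons of tissues came from a joint fit, using the quasi-likelihood method of edgeR 4 without a separate dispersion step. This fit treated all libraries as independent, although same-numbered libraries of different tissues may come from the same mouse. Xist reached 313 CPM in liver, 264.5 CPM in kidney and 394 CPM in WAT under the 2 Xist numbers. Same-numbered liver and kidney libraries deviated together (correlation above 0.1) in 17 of 36 pairs. A block on the shared number was an alternative. CPM are TMM-scaled unless stated, and values per kb use the deposited gene length. DESeq2 1.42.0, other scalings, no filter, a replicate block and left-out libraries were alternatives. Steps were tested on simulated data.

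The members and lists were chosen with earlier results of these data known. Genes named are the paralog pairs, the stalk genes, Rps6, and by rule those of smallest p, largest called tissue difference or extreme level. The other genes named, among them those named relative to the family and the short members, were chosen after their values were seen. Coordinates in the deposited table did not match GRCm38 genes, so positions come from RefSeq. No 2 libraries of a group agreed within sampling noise (lowest chi-square per degree of freedom 10.55 over all pairs).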

Additional observations from a re-analysis of the deposited data

Results flagged for a closer look

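The genotype effect on Rps23rg1 differed between liver and WAT by a test of the difference itself. The effect in liver minus that in WAT was -2.82 (log2) in 1 fit of every library with edgeR (adjusted p = 0.0289). Rps23rg1 fell in iKO livers and was not called in WAT, where it ran from 0 to 262 counts in iKO and from 0 to 121 counts in flox. The call was lost with the replicate block, with no filter, with total counts, with scaling to the members, without the libraries of the 11 cell cycle numbers, without those of the 2 Xist numbers and without the low-adipocyte WAT libraries. The cause was not tested.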

How the results depend on the processing

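The average genotype effect in liver called 1 gene, and 2 with DESeq2, 11 with total counts and 2 without the libraries of the cell cycle numbers. Rhythm in flox livers gave 0 genes, and 3 with DESeq2, 1 with total counts, 5 without the cell cycle numbers, 1 scaled to the members and 2 with time as a factor. In iKO livers it gave 0, and 1 with DESeq2 and 8 with time as a factor. Rhythm in flox kidneys gave 3, and 10 with DESeq2 and 11 without the cell cycle numbers. In iKO kidneys it gave 1, and 6 with DESeq2, 0 without the cell cycle numbers, 0 without the Xist numbers, 5 scaled to the members and 14 with time as a factor. DESeq2 gave 2 rhythmic genes in flox WAT, against 0, and 1 genotype effect added over the times in liver, against 0. For liver minus kidney 73 genes were called, and 38 with total counts and 45 scaled to the members, and the median was -0.0843 with total counts. For liver minus WAT the median was -0.81 with total counts. For WAT minus kidney 59 were called, and 25 without the low-adipocyte libraries and 31 scaled to the members. The genotype effect differed for liver minus WAT in 1 gene, and in 0 with no filter, total counts or scaling to the members and without the cell cycle, Xist or low-adipocyte libraries, while for liver minus kidney it differed in 1 without the low-adipocyte libraries, against 0. Rpl3l stood at 3.52 (log2) for WAT minus kidney and turned to -1.44 without the low-adipocyte libraries (adjusted p = 0.20). Where this report gives no share of all genes for a setting, as for DESeq2, its count of members cannot be set against a background. The cell cycle, Xist and adipocyte settings and the scaling to the members were chosen after seeing the data, and the cause of these changes was not tested.

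With single libraries left out, the liver average gave 1 to 3 genes, with 3 without flox ZT6 1, flox ZT22 1, iKO ZT6 3 or iKO ZT18 3. Effects added over the times gave 0 to 1 in liver and 0 to 1 in kidney. Rhythm in kidney gave 0 to 7 genes in iKO (0 without ZT2 3, ZT22 2 or ZT22 3, and 7 without ZT2 1 or ZT6 1) and 2 to 9 in flox. For the fits across tissues the 36 planned refits were not run, and all libraries of 1 replicate number were left out instead in 3 refits, which gave 38 to 55 genes for WAT minus kidney and 0 to 1 for the effect in liver minus WAT. Of the values of named genes with libraries left out, 1228 kept direction and side of the threshold, 19 passed it and 13 no longer did. Under the other alternatives these were 443, 12 and 17, and 1 (Rpl3l) turned.

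Same-numbered iKO and flox libraries deviated together (correlation above 0.1) in 6 of 18 liver pairs and 5 of 18 kidney pairs. In WAT, 10 of 18 pairs did. The lowest correlation was -0.614 for liver, -0.298 for kidney and -0.656 for WAT, and the highest 0.694, 0.43 and 0.853. Whether same-numbered iKO and flox libraries share more than a number cannot be decided here, because pairs went both ways and groups hold 3 libraries. With the replicate number as a block the member medians were -0.04 in liver, 0.11 in kidney and 0.07 in WAT, rhythm in iKO kidneys called 2 genes, and the effect in liver minus WAT called 0.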
